A study of Mus musculus with 6 samples.

Results

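The core of the mTOR pathway was followed through 10 genes, chosen by symbol: Mtor, Mlst8, Rptor, Akt1s1, Rictor, Rheb, Tsc1, Tsc2, Rps6kb1 and Rps6kb2. All 10 were found among the 21878 rows of each library, and all 10 passed the filter on low values (at least 1 FPKM in at least 3 libraries) that left 10449 genes for testing. FPKM counts the fragments of a gene per kilobase of its transcript and per set number of fragments sequenced. RNA-seq was performed on hematopoietic stem cells (HSCs) sorted from the bone marrow (BM) of WT mice as CD34-Flk2-Lineage-Sca1+c-Kit+ cells, with 3 libraries of control mice and 3 libraries of mice treated with IGF1 (insulin-like growth factor 1). By the study's methods the mice were C57BL/6 and IGF1 was given subcutaneously, once, with HSCs collected at day 1. The age of the mice and the number of mice behind each library were not given in the sources used here. The comparison asks whether IGF1 changed the transcript levels of the pathway through which it signals.

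The kinase mTOR works in a pair of complexes. In mTORC1 it is joined by Raptor (Rptor), which recruits substrates, and in mTORC2 by Rictor, while mLST8 belongs to both. IGF1 acts through PI3K and AKT, which inhibit the TSC complex and PRAS40 (Akt1s1). Relief of the small GTPase Rheb from TSC2 then activates mTORC1, which phosphorylates the S6 kinases (Rps6kb1 and Rps6kb2) to promote protein synthesis. In HSCs, loss of Tsc1 is known to drive cells out of quiescence. Most of this control works through phosphorylation and binding of proteins, which RNA-seq does not measure.

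The libraries need a description before the values. Whole reads could be recovered from the steps of the FPKM values and summed to between 11206800 and 15973834 per library over all genes. Control replicate 2 stood apart from its group. Over the tested genes its mean absolute difference on the log2(FPKM + 1) scale was 0.682 from control replicate 1 and 0.682 from control replicate 3, but 0.274 to 0.284 from the IGF1 libraries. Control replicates 1 and 3 differed from each other by 0.0762 and the IGF1 libraries by 0.0937 to 0.0962. Recovered reads differed between control replicates 1 and 3 with a chi-squared of 1.52 per gene, and between IGF1 libraries with 1.69 to 1.89, where pure counting noise gives about 1. Nothing in the labels says that the libraries came from separate mice, so p-values measure the spread between these libraries, which may be technical. Control replicate 2 was nearer to the IGF1 mean than to the mean of control replicates 1 and 3 in 77.3% of the tested genes, and in 5 of the 10 genes described here (Akt1s1, Mlst8, Mtor, Rptor and Tsc2). Results are therefore given with and without this library, whose label was kept.

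The sort was also checked against markers. Genes of HSC identity were detected, with Procr at 11.5 to 18.7 FPKM and Hlf at 8.88 to 11.8 FPKM, but Mecom reached at most 4.10, Slamf1 2.41 and Hoxb5 0.691 FPKM. Genes that the gate should leave low were high, and they moved in opposite directions with the groups. Cd34 was at 640, 265 and 634 FPKM in control and 230 to 238 FPKM in IGF1 libraries. Flt3, which encodes Flk2, was at 117, 172 and 117 and at 183 to 188 FPKM. Cd48, listed with them, was at 272, 118 and 283 and at 86.6 to 93.3 FPKM. The summed level of 9 neutrophil and monocyte genes was 2279 to 2450 FPKM in control and 2453 to 2459 FPKM in IGF1 libraries, but this sum was mostly Mpo (1613 to 1705 FPKM) and its members moved in opposite directions with the groups. S100a8 was at 284, 163 and 285 FPKM in control and 55.0 to 72.8 FPKM in IGF1 libraries, and Ngp at 79.0, 11.5 and 78.2 and at 2.22 to 3.73 FPKM. Elane, in contrast, was at 92.8, 576 and 92.4 FPKM in control and 692 to 709 FPKM in IGF1 libraries. The 7 B cell genes summed to 90.7 to 296 FPKM in control and 295 to 311 FPKM in IGF1 libraries, the 5 megakaryocyte and platelet genes to 52.3 to 73.9 and 90.3 to 101 FPKM, the 7 erythroid genes to 35.0 to 101 and 46.5 to 53.3 FPKM, and the 6 T and NK cell genes, nearly all from Nkg7, to 359 to 778 and 769 to 789 FPKM. The megakaryocyte and platelet genes did not move together. Pf4 was at 15.6, 48.6 and 15.1 FPKM in control and 63.1 to 73.7 FPKM in IGF1 libraries. Itga2b went the other way, at 32.2, 16.8 and 32.3 and at 17.9 to 19.3 FPKM. The 5 stromal and endothelial genes summed to at most 1.09 FPKM. The part of other cell types in the results below was not tested, and in bulk samples fewer cells of a type and less RNA per cell cannot be told apart.

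Among the 10 genes Rheb had the highest level, and it was the only one whose difference passed an adjusted p of 0.05 in the fit of all 6 libraries. Its promoter window, from RefSeq, spans 250 bases before to 50 bases after the annotated start, and it is printed because it holds an E-box, the motif bound by MYC and by the lysosomal regulator TFEB, which mTORC1 controls. The window of Rps6kb1 is shown beside it because it holds GCATGC, the centre of the palindrome bound by NRF1, at 3 places. Both are on the minus strand of GRCm38.p6, read 5′ to 3′, at chr5:24842312-24842611 for Rheb and chr11:86544758-86545057 for Rps6kb1, with CACGTG in capitals in the first and GCATGC in the second.
Rheb: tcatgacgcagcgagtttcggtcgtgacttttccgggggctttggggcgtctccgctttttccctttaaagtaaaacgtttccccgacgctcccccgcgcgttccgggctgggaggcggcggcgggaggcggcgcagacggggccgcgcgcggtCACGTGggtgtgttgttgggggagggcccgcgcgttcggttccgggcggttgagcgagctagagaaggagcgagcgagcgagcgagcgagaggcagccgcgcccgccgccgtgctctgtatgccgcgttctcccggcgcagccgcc
Rps6kb1: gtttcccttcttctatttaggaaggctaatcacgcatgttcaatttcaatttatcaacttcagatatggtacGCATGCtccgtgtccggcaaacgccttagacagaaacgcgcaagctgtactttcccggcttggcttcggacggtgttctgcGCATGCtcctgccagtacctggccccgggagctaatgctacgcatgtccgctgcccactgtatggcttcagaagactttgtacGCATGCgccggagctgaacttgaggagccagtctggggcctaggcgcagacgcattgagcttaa

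The E-box of Rheb starts 96 bases before the start site, and the copies of GCATGC in Rps6kb1 start 178, 97 and 14 bases before it. Windows were found for 9 of the 10 genes (no entry for Rps6kb2). Both motifs read the same on either strand. Among the 9, CACGTG occurred only in Rheb and GCATGC only in Rps6kb1. Of all 32851 mouse windows in the table, 7.15% hold CACGTG and 7.93% hold GCATGC, and 0.0822% hold GCATGC at 3 or more places. CCAAT, read on both strands, was found 4 times in Mtor, once in Rictor and in none of the other 7 windows, against 37.4% of all windows with at least 1 copy and 3.37% with 3 or more. A match is a description of the sequence and not evidence of binding.

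Levels per length differed widely between the genes. Averaged over the 6 libraries, Rheb stood at 101 FPKM, above 90.4% of the tested genes, followed by Akt1s1 at 20.3, Rps6kb2 at 19.6, Rps6kb1 at 7.42, Tsc2 at 6.25, Rictor at 5.66, Rptor at 4.09, Mlst8 at 3.91, Mtor at 3.66 and Tsc1 at 2.27 FPKM. Rheb exceeded Akt1s1 by 3.38 to 8.10 times in 6 of 6 libraries. Several neighbours in this order could not be separated. Akt1s1 exceeded Rps6kb2 in 3 of 6 libraries (in the IGF1 libraries), Rps6kb1 exceeded Tsc2 in 5, Tsc2 exceeded Rictor in 5, Rptor exceeded Mlst8 in 4 and Mlst8 exceeded Mtor in 2. Rps6kb2 over Rps6kb1, Rictor over Rptor and Mtor over Tsc1 held in 6 of 6 libraries. The kinase itself thus had a level above only 21.8% of the tested genes, and the TSC scaffold Tsc1 above 12.2%.

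**Figure D1:**
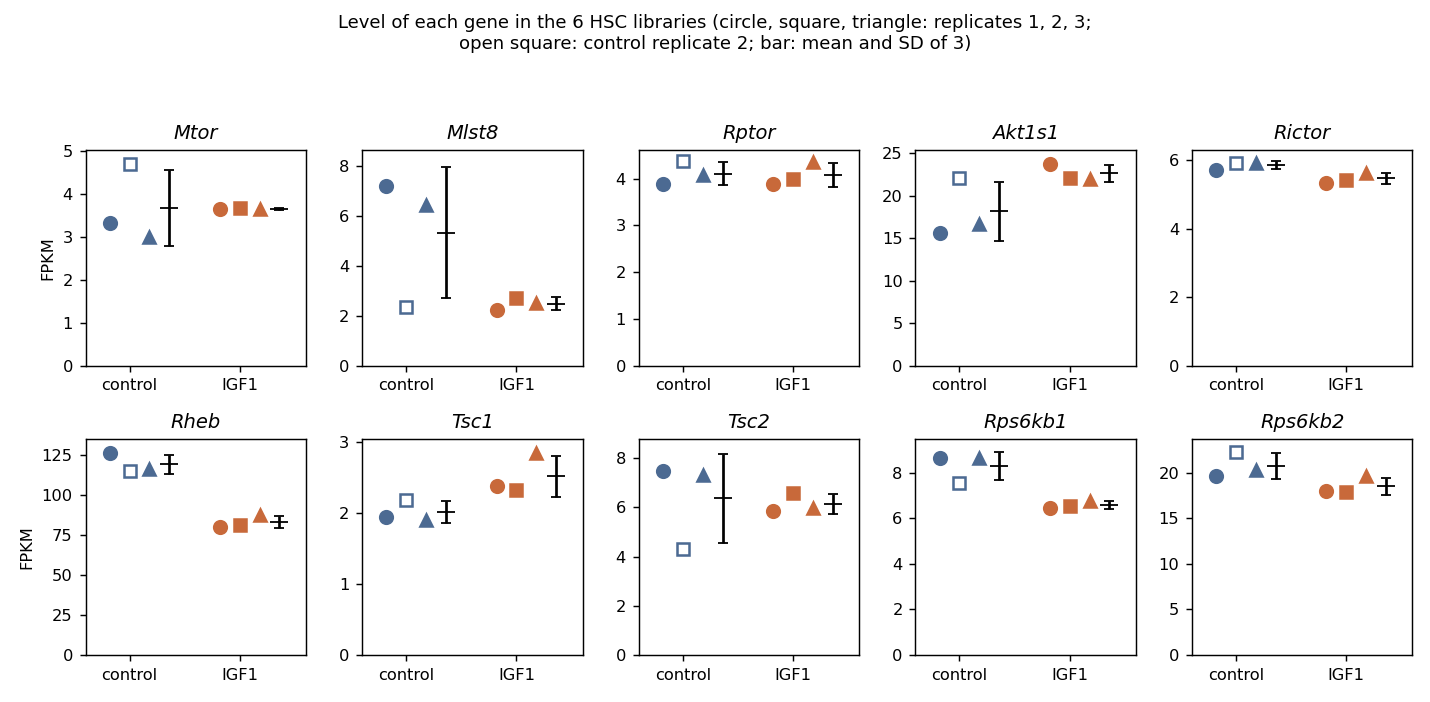
FPKM (vertical axis, linear from 0) of each of the 10 genes in 3 control (blue) and 3 IGF1 (orange) libraries, with the mean and SD of each group beside the points and control replicate 2 as an open square. The IGF1 libraries of Rheb lie between 80.2 and 87.3, below all control libraries, while in Mlst8 control replicate 2 lies among the IGF1 libraries.

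None of the 10 genes passed the call, which needed both a change beyond 2-fold and an adjusted p under 0.05 (limma with Benjamini-Hochberg adjustment over all 10449 genes), where 6.61% of the tested genes were called. By the adjusted p alone 1 of 10 passed, against 20.4% of all tested genes. The study's methods name the same thresholds with DESeq2, which needs counts and was not used on these FPKM values. At an unadjusted p under 0.05 there were 2 (Rheb and Rps6kb1). The fold changes below are on the log2(FPKM + 1) scale with their SE, and the median of all tested genes on this scale was -0.18. Scaling the libraries to the 75th percentile moved that median to 0.04, and median-of-ratios and quantile scaling moved it to 0.01 and -0.02, so that a gene at 0 here lies above the median gene. The median of the 10 genes was -0.05, with 3 higher and 7 lower in IGF1, and it was 0.16, with 7 higher and 3 lower, after scaling to the 75th percentile.

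Mtor encodes the kinase shared by both complexes (GRCm38 chromosome 4, 148448611 to 148557683, plus strand, 56 exon blocks). Its FPKM, given here and below in the order of the replicate numbers, was 3.33, 4.69 and 3.0 in control and 3.64, 3.67 and 3.64 in IGF1 libraries. The IGF1 libraries lay within the control range, above control replicates 1 and 3 and below control replicate 2. IGF1 against control gave a log2 fold change of 0.01 (SE 0.16, 95% interval -0.38 to 0.40, limma adjusted p = 0.964). Without control replicate 2 it was 0.16 (limma adjusted p = 0.0571), and with trends over gene length and GC content removed it was -0.29 (limma adjusted p = 0.0715). With control replicate 2 left out as well, the removal of trends gave -0.24 (limma adjusted p = 0.00997). Scaling to the 75th percentile without that library gave 0.43, opposite in sign (limma adjusted p = 0.000286). Library weights gave 0.15 (limma adjusted p = 0.0431).

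Mlst8, the subunit that stabilises the kinase domain (chromosome 17, 24473551 to 24479078, minus strand), showed the widest spread among controls relative to its level. It stood at 7.22, 2.34 and 6.44 FPKM in control and at 2.23, 2.72 and 2.53 FPKM in IGF1 libraries, from 394, 92 and 354 reads and 94, 105 and 111 reads. Control replicate 2 lay among the IGF1 libraries, and the other control libraries were above them. Its log2 fold change was -0.76 (SE 0.35, 95% interval -1.62 to 0.11, limma adjusted p = 0.123). Without control replicate 2 Mlst8 fell by 1.17 on the log2 scale (limma adjusted p = 4.42e-07) and passed the call, as did 20.6% of the tested genes in the same direction. Mlst8 shares 22.5% of its exonic bases with Bricd5 on the opposite strand, which was listed at 0 FPKM in all libraries.

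Rptor, the defining subunit of mTORC1 (chromosome 11, 119602905 to 119899576, plus strand), had groups of nearly the same range. Its FPKM was 3.89, 4.37 and 4.07 in control and 3.88, 4.0 and 4.36 in IGF1 libraries. The log2 fold change was -0.01 (SE 0.11, 95% interval -0.27 to 0.26, limma adjusted p = 0.948). It was 0.03 without control replicate 2, 0.19 after scaling to the 75th percentile and -0.28 with length and GC trends removed, none past the threshold (limma adjusted p = 0.73, 0.252 and 0.0717). With control replicate 2 left out as well, the same scaling gave 0.31 and the removal of trends -0.31, both past the adjusted p and opposite in sign (limma adjusted p = 0.00273 and 0.00286).

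Akt1s1 encodes PRAS40, an inhibitory subunit and substrate of mTORC1 that AKT phosphorylates (chromosome 7, 44848991 to 44855421, plus strand). Its FPKM was 15.6, 22.1 and 16.7 in control and 23.7, 22.1 and 22.0 in IGF1 libraries, so that control replicate 2 again lay among the IGF1 libraries. IGF1 against control gave a log2 fold change of 0.32 (SE 0.15, 95% interval -0.05 to 0.69, limma adjusted p = 0.127). It was 0.46 without control replicate 2 (limma adjusted p = 1.81e-05), but with trends over length and GC content removed the sign turned, to -0.07 (limma adjusted p = 0.484). Akt1s1 had the highest GC content of the 10 genes, 61.8%.

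Rictor, the defining subunit of mTORC2 (chromosome 15, 6708379 to 6800401, plus strand), was tightly grouped. Its FPKM was 5.72, 5.92 and 5.91 in control and 5.33, 5.43 and 5.63 in IGF1 libraries, and every IGF1 library was below every control library. Its log2 fold change was -0.08 (SE 0.10, 95% interval -0.34 to 0.17, limma adjusted p = 0.511), and it was -0.08 without control replicate 2. The direction turned under scaling to the 75th percentile (0.13), median-of-ratios scaling (0.10), quantile normalization (0.14) and removal of length and GC trends (0.04).

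Rheb, the GTPase that activates mTORC1 (chromosome 5, 24802823 to 24842624, minus strand), had the smallest adjusted p of the 10 genes. It stood at 126, 115 and 116 FPKM in control and 80.2, 81.4 and 87.3 FPKM in IGF1 libraries, from 2026 to 3071 and 1402 to 1711 reads. All IGF1 libraries were lower than all control libraries, and control replicate 2 lay with its own group. The log2 fold change was -0.52 (SE 0.10, 95% interval -0.76 to -0.28, limma adjusted p = 0.0363), a 1.43-fold lower level. Without control replicate 2 it was -0.54 (limma adjusted p = 2.04e-06). The adjusted p did not pass 0.05 after scaling to the 75th percentile (log2 fold change -0.26, limma adjusted p = 0.116) or with length and GC trends removed (-0.25, limma adjusted p = 0.0621). Without any one of the other 5 libraries the log2 fold change was -0.48 to -0.55, where 0 of the 10449 genes passed the adjusted p.

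Tsc1 and Tsc2 encode the scaffold and the GTPase-activating subunit of the complex that switches Rheb off. Tsc1 (chromosome 2, 28641228 to 28691167, plus strand) stood at 1.95, 2.19 and 1.90 FPKM in control and 2.38, 2.33 and 2.85 FPKM in IGF1 libraries. It was the one gene of the 10 with all IGF1 libraries above all control libraries, and its sign held under every alternative run. IGF1 against control gave a log2 fold change of 0.22 (SE 0.11, 95% interval -0.05 to 0.49, limma adjusted p = 0.137) and 0.26 without control replicate 2 (limma adjusted p = 0.016). Tsc2 (chromosome 17, 24595816 to 24632630, minus strand) stood at 7.48, 4.29 and 7.32 FPKM in control and 5.85, 6.59 and 5.97 FPKM in IGF1 libraries. Control replicate 2 was below all IGF1 libraries and the other control libraries were above them. Its log2 fold change was -0.01 (SE 0.21, 95% interval -0.53 to 0.50, limma adjusted p = 0.956), and without control replicate 2 it was -0.24 (limma adjusted p = 0.00756), so the level of Tsc2 depended on that library. Tsc2 overlaps Pkd1, on the opposite strand, over 7.20% of its exonic bases.

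Rps6kb1 (S6K1) and Rps6kb2 (S6K2), the effector kinases that phosphorylate ribosomal protein S6, were both lower in every IGF1 library than in every control library. Rps6kb1 (chromosome 11, 86498871 to 86544805, minus strand) stood at 8.62, 7.56 and 8.64 FPKM in control and 6.45, 6.53 and 6.75 FPKM in IGF1 libraries. Its log2 fold change was -0.29 (SE 0.11, 95% interval -0.56 to -0.02, unadjusted p = 0.0413, limma adjusted p = 0.0838) and -0.35 without control replicate 2 (limma adjusted p = 0.000263). Under 75th percentile, median-of-ratios and quantile scaling it was -0.06, -0.09 and -0.02, none past the threshold (limma adjusted p = 0.58, 0.422 and 0.869). With length and GC trends removed the sign turned, to 0.19 (limma adjusted p = 0.162), and Rps6kb1 had the lowest GC content of the 10 genes, 39.2%. Rps6kb2 (chromosome 19, 4153991 to 4163354, minus strand) stood at 19.6, 22.3 and 20.3 FPKM in control and 18, 17.9 and 19.6 FPKM in IGF1 libraries. Control replicate 1 and IGF1 replicate 3 differed only beyond the digits printed. The log2 fold change of Rps6kb2 was -0.15 (SE 0.10, 95% interval -0.41 to 0.10, limma adjusted p = 0.243), and it was 0.09, 0.06 and 0.18 under 75th percentile, median-of-ratios and quantile scaling. Ptprcap, which reached 1396 FPKM, overlaps 23.7% of the exonic bases of Rps6kb2 on the opposite strand. The library kit marks strand, but whether strand was used in counting is not given in the sources used here.

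Of the 10 genes, 4 (Rheb, Rictor, Rps6kb1 and Rps6kb2) were lower in all IGF1 libraries than in all controls and 1 (Tsc1) was higher, beside 37.4% and 21.9% of the tested genes. For Rps6kb2 this rested on digits beyond those printed. Without control replicate 2, the adjusted p passed 0.05 for 4 lower genes (Mlst8, Rheb, Rps6kb1 and Tsc2), beside 53.6% of the tested genes, and for 2 higher genes (Akt1s1 and Tsc1), beside 34.9%. The shares of the 10 genes were thus near or below those of all tested genes.

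**Figure D2:**
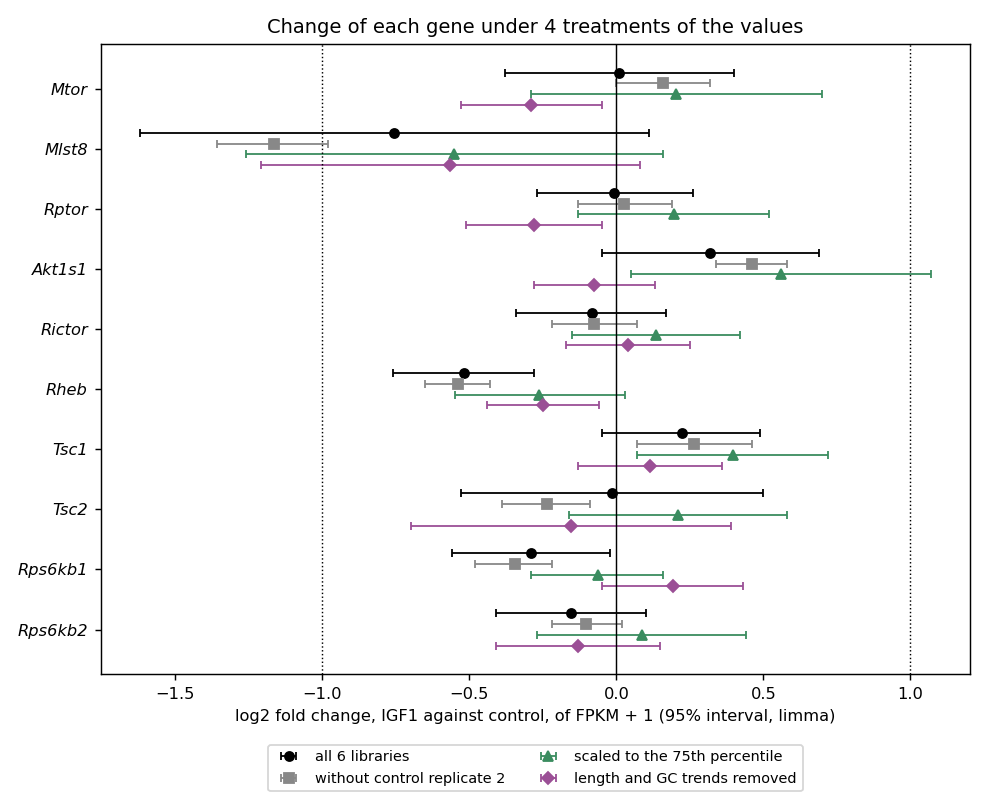
The log2 fold change of FPKM + 1 (horizontal axis, IGF1 against control) with its 95% interval from limma for each of the 10 genes, under all 6 libraries, without control replicate 2, after scaling to the 75th percentile and with length and GC trends removed. Dotted lines mark a 2-fold change. Rheb is below 0 in all 4, from -0.54 to -0.25, while the sign of Mtor, Rptor, Akt1s1, Rictor, Tsc2, Rps6kb1 and Rps6kb2 depends on the treatment of the values.

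Ratios within a library do not depend on its scaling, but they do on trends over length and GC content. The Rptor to Rictor ratio, which sets the defining subunits of mTORC1 and mTORC2 side by side, was 0.680, 0.738 and 0.690 in control and 0.727, 0.737 and 0.774 in IGF1 libraries. Control replicate 2 lay between IGF1 replicates, and the means were 0.702 ± 0.0307 and 0.746 ± 0.0245 (SD, n = 3 each; exact 2-sided permutation p = 0.3). The Tsc1 to Tsc2 ratio was 0.261, 0.510 and 0.260 in control and 0.407, 0.353 and 0.478 in IGF1 libraries. It was highest in control replicate 2 and lowest in the other controls, with means of 0.343 ± 0.144 and 0.413 ± 0.0629 (SD, n = 3 each; exact 2-sided permutation p = 0.4). The Rps6kb1 to Rps6kb2 ratio was 0.439, 0.339 and 0.426 in control and 0.358, 0.364 and 0.345 in IGF1 libraries, with control replicate 2 the lowest of all 6. Its means were 0.402 ± 0.0545 and 0.356 ± 0.00960 (SD, n = 3 each; exact 2-sided permutation p = 0.4). None of the 3 ratios separated the groups with all 6 libraries, where an exact p cannot go below 0.1. All 3 did without control replicate 2, each at an exact permutation p = 0.1, the smallest that 2 libraries against 3 allow. The difference on the log2 scale then went from 0.09 to 0.12 for Rptor to Rictor, from 0.33 to 0.65 for Tsc1 to Tsc2 and from -0.17 to -0.28 for Rps6kb1 to Rps6kb2. With control replicate 1 or 3 left out instead, it was 0.17 for Tsc1 to Tsc2 and -0.10 and -0.12 for Rps6kb1 to Rps6kb2. With length and GC trends removed in all 6 libraries, Rptor to Rictor turned to -0.32 and Rps6kb1 to Rps6kb2 to 0.32.

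**Figure D3:**
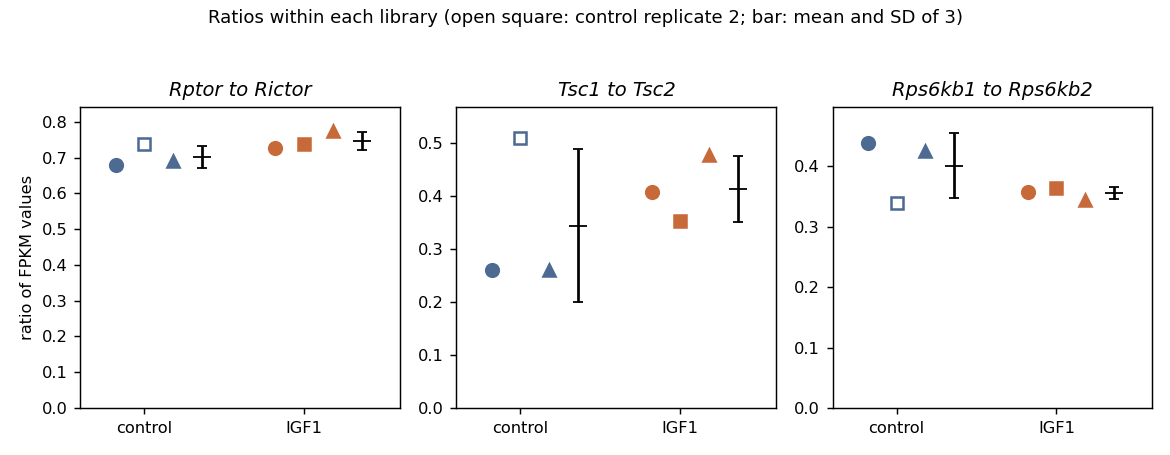
Ratio of FPKM values (vertical axis, linear from 0) of 3 gene pairs in each of 3 control (blue) and 3 IGF1 (orange) libraries, with mean and SD. Control replicate 2 (open square) lies within or beyond the IGF1 libraries, for example at 0.510 for Tsc1 to Tsc2 against 0.353 to 0.478.

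The other genes of the pathway give the setting. Of 107 such genes in 6 lists, all were found and 98 were tested. By the same call 8 fell (8.16%) and 0 rose, beside 4.63% of all tested genes called lower and 1.98% called higher. In either direction 6.61% of all tested genes were called. Of the 8 pathway genes, 5 belong to the arm that senses amino acids at the lysosome (25 tested, 10 higher and 15 lower, median log2 fold change -0.20). Rraga and Rragc, which encode Rag GTPases that bring mTORC1 to the lysosome, fell by 1.10 and 1.27 (limma adjusted p = 0.029 and 0.0459). Mios, a subunit of GATOR2, which relieves the inhibition of the Rag GTPases, fell by 1.32 (limma adjusted p = 0.044). Sesn2, a leucine sensor that inhibits GATOR2, fell by 1.09 (limma adjusted p = 0.0429). Sesn1, its relative, also fell, by 1.10 (limma adjusted p = 0.0481), and was named after its values were seen. The members that fell thus include both activators and inhibitors of mTORC1. Lamtor2, a Ragulator subunit and the most abundant gene of this list at 405 FPKM, was at 197, 490 and 191 FPKM in control and 523, 527 and 501 FPKM in IGF1 libraries, a log2 fold change of 0.97 that did not pass (limma adjusted p = 0.0874), and it was -0.09 with length and GC trends removed. The median of the list was 0.04 after scaling to the 75th percentile.

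Among transcriptional targets of mTORC1 (20 tested, 5 higher and 15 lower, median -0.57), 2 fell. Slc7a5, the leucine transporter, fell by 1.56 (limma adjusted p = 0.0483) and Psat1, an enzyme of serine synthesis, by 1.09 (limma adjusted p = 0.0412). Over the alternatives Slc7a5 was at -2.06 to -1.29 and Psat1 at -1.37 to -0.57. Slc7a5 was at 41.5, 14.4 and 42.2 FPKM in control and 9.05 to 9.65 FPKM in IGF1 libraries. Ldha, the most abundant target and a glycolytic enzyme, stood at 1032, 786 and 1051 FPKM in control and 481, 484 and 482 FPKM in IGF1 libraries, and its log2 fold change of -0.97 passed the adjusted p (0.0355, limma) but not the fold. The median of this list stayed below 0 under every alternative run (-0.92 to -0.33).

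In the TSC and Rheb arm with its upstream kinases (19 tested, 5 higher and 14 lower, median -0.24), 0 genes were called higher and 1 lower. Akt1, the most abundant of them, was at 138, 59.6 and 138 FPKM in control and 55.6, 57.4 and 57.5 FPKM in IGF1 libraries, with a log2 fold change of -0.87 (limma adjusted p = 0.0849). The median of this arm was 0.02 after scaling to the 75th percentile. Of the 6 other subunits and assembly factors of the complexes, 0 were called, with 1 higher and 5 lower and a median of -0.65. Mapkap1, the mTORC2 subunit mSIN1, had the highest level among them, at 25.2, 11.1 and 24.9 FPKM in control and 11.3, 10.1 and 11.3 FPKM in IGF1 libraries (log2 fold change -0.76, limma adjusted p = 0.0988).

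None of the 20 genes listed as substrates of mTORC1 and the S6 kinases and none of the 8 listed as substrates of mTORC2 were called. Past the adjusted p alone were 2 lower genes of the first list and 1 higher gene of the second. These lists are wider than direct substrates. The first also holds genes of another S6 kinase family, which gave 1 of the lower genes, and the second holds Ndrg1. Rps6, the ribosomal protein that gives the S6 kinases their name, was at 566, 1507 and 565 FPKM in control and 1562, 1627 and 1662 FPKM in IGF1 libraries. Its log2 fold change was 1.04 (limma adjusted p = 0.0903), and 0.16 after quantile normalization. Ndrg1, a target of SGK1 downstream of mTORC2, was at 77.8, 35.2 and 78.9 FPKM in control and 37.4, 37.7 and 36.6 FPKM in IGF1 libraries (log2 fold change -0.68, limma adjusted p = 0.127). In Lamtor2, Akt1, Mapkap1, Rps6 and Ndrg1 alike, control replicate 2 was near the IGF1 libraries. Without it 10 pathway genes rose (10.2%) and 30 fell (30.6%) by the same call, beside 12.3% and 20.6% of all tested genes.

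**Figure D4:**
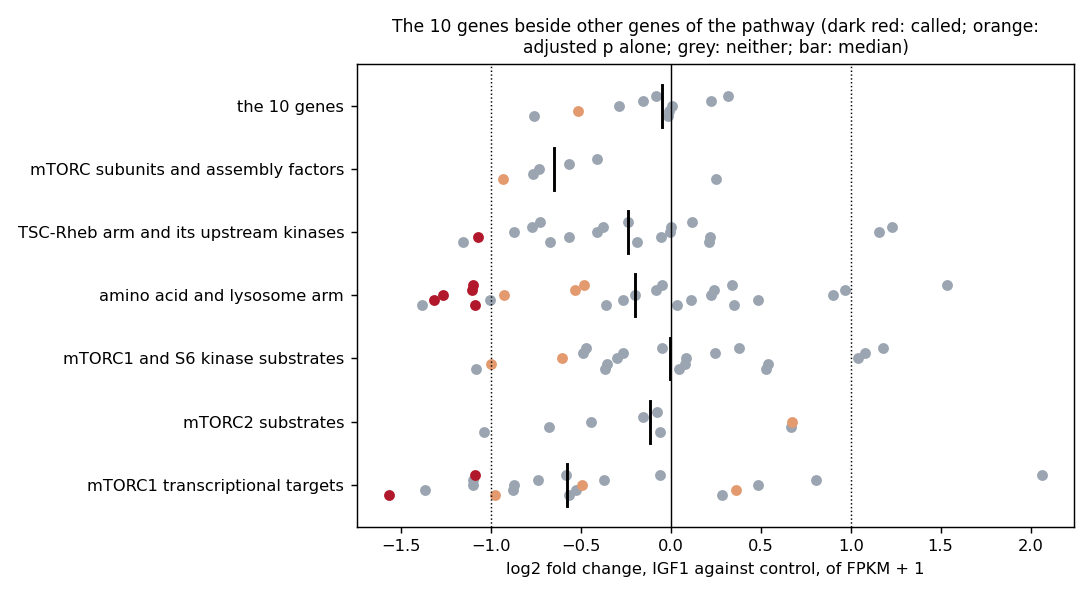
The log2 fold change of FPKM + 1 (horizontal axis, IGF1 against control) of the 10 genes and of the 98 tested genes of 6 pathway lists, 1 point per gene with a bar at each list's median. Dark red marks the 8 called genes, all lower in IGF1, orange those past the adjusted p alone and grey the others, and dotted lines mark a 2-fold change.

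Genes with the pattern most like that of Mtor, Rptor and Rictor were found by the root mean square difference of log2(FPKM + 1) after centring each gene, over the 6 libraries. For Mtor they were Tmem216 (0.026), Cd27 (0.027) and Ctla2b (0.028), against a median of 0.388 over all tested genes. Cd27 was at 158, 209 and 145 FPKM in control and 177, 174 and 167 FPKM in IGF1 libraries, highest in control replicate 2 like Mtor. For Rptor they included Fbp1 (0.018) and Timm17a (0.030), against a median of 0.349. For Rictor they were Atp6v1d (0.015), Araf (0.026) and Hexa (0.027), against a median of 0.337. These genes were picked as the closest, so their distance from the median and their shared pattern follow from the selection.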

How the data were processed

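HSC RNA-seq libraries (3 control, 3 IGF1) were grouped by their labels. The labels conflict on the treatment, since the extraction text speaks of irradiated mice while the treatment label, the series' design and the study name IGF1, which was taken. The values the authors deposited, 1 for each symbol in each library, are FPKM by their steps, made by trimming, aligning and quantifying reads, and the file headers name no unit. For this the study's methods name fastp and RSEM, while the submitters' processing notes list fastp, HISAT2 and StringTie with GRCm38 (mm10). Whole reads (tolerance 0.01 reads) could be recovered for all of the 15640 genes detected in any library (100%), and for 14.3% of 300 such rows after random noise was added, and were used for depth and 1 alternative.

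Tests used limma 3.58.1 with a variance trend in R 4.3.3, on log2(FPKM + 1) of the 10449 genes that reached 1 FPKM in 3 or more libraries, with Benjamini-Hochberg adjustment over all of them, after a test on simulated data. Positions and overlaps came from GENCODE and promoters from RefSeq, both on GRCm38. Length and GC content were known for 99.0% of tested genes. Named genes are the 10 genes, of each pathway list the most abundant gene and the called genes first by adjusted p (at most 4), and the 3 genes most like Mtor, Rptor and Rictor. Of the genes this rule names, 2 are not reported here. Members and lists were chosen with earlier results of these data known. Alternatives were pseudocounts of 0.1 and 5, other filters and scalings, no variance trend, library weights, a replicate block, removal of length and GC trends, leaving out each library and, added after seeing the data, voom on the recovered reads and 2 corrections without control replicate 2.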

Additional observations from a re-analysis of the deposited data

How the results depend on the processing

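Depth limits little here, since every one of the 10 genes had at least 92 reads in each library. Control replicate 2, the scaling and the removal of length and GC trends each moved results. Of the 10 genes, 1 was called with library weights and 1 without control replicate 2 (0 to 1 over the fits without 1 library), and 0 under the other alternatives. In each of these 2 settings 32.9% of all tested genes were called. The count past the adjusted p alone (1) became 0 under 75th percentile and median-of-ratios scaling and with length and GC trends removed, and 7 with library weights, where 90.1% of all tested genes passed. Without control replicate 2 it was 6 (88.5% of all genes), and 8 and 6 (87.0% and 83.5% of all genes) when control replicate 2 was left out and the values scaled to the 75th percentile or freed of length and GC trends. The other pathway genes called (8, or 8.16%, beside 6.61% of all tested genes) were 1 with a pseudocount of 5 (1.02% beside 2.13%) and 3 without a filter (2.80% beside 2.39%). They were 3 under 75th percentile scaling (3.06% beside 5.35%), 2 under median-of-ratios scaling (2.04% beside 5.37%) and 4 under quantile normalization (4.08% beside 5.96%). With library weights they were 40 (40.8% beside 32.9%), and with length and GC trends removed 2 (2.04% beside 3.10%). They were 40 without control replicate 2 (40.8% beside 32.9%), and 27 and 16 in the same 2 combined settings (27.6% and 16.3%, beside 29.8% and 18.7%). Same-numbered libraries did not deviate together (r = -0.06, -0.05 and 0.01), so the numbers only name them, and under the replicate block 0 of the 10 genes passed the adjusted p and 0 pathway genes were called. The same counts, 0 and 0, came without any one library other than control replicate 2. In these fits and under the block 0 of all 10449 genes passed, so these counts say nothing about the 10 genes. With length and GC trends removed the Rptor to Rictor ratio became -0.32 and the Rps6kb1 to Rps6kb2 ratio 0.32 on the log2 scale, with the opposite sign to the deposited values (0.09 and -0.17) and with groups that did not overlap (exact permutation p = 0.1, the smallest possible).

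Among 196 values of single genes under 20 alternatives, 135 kept direction and side of the adjusted p. A further 18 kept direction and newly passed it, and 9 kept direction and lost it (those of Rheb, 6 of them in fits where no gene passed). The other 34, in 7 genes, changed sign. Some of the 34 newly passed the adjusted p too, all in the 2 combined settings without control replicate 2. In the order 75th percentile, median-of-ratios and quantile scaling, the sign changes were Rptor (0.19, 0.17, 0.16), Rictor (0.13, 0.10, 0.14), Tsc2 (0.21, 0.18, 0.25) and Rps6kb2 (0.09, 0.06, 0.18). With length and GC trends removed they were Mtor (-0.29), Rictor (0.04), Akt1s1 (-0.07) and Rps6kb1 (0.19), and with control replicate 2 left out as well -0.24, 0.04, -0.03 and 0.26. With 75th percentile scaling and control replicate 2 left out they were Rptor (0.31), Rictor (0.22), Tsc2 (0.07) and Rps6kb2 (0.23), and with library weights Rptor (0.03). Over the fits without 1 library Mtor ranged from -0.09 to 0.16, Rptor from -0.05 to 0.03 and Tsc2 from -0.24 to 0.10. The cause of these turns was not tested.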
